A study of Mus musculus with 12 samples.

Results

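The serpins are a family of proteins named for the serine protease inhibitors among them, and 42 of the 17007 genes listed in this RNA-Seq experiment carry a symbol that begins with *Serpin*. That symbol was the only criterion for membership. Of these, 41 are described here: by their symbols, 22 belong to clade A, 11 to clade B and 8 to the other clades (C to I). The annotation of GRCm38 holds 68 symbols of this kind, and the 26 that are not listed were not analysed here. Of these 41 members, 37 passed the filter on low values (0.5 FPKM or more in any 3 of the 12 libraries) and were tested among 14397 genes in all. *Serpina3h*, *Serpina3i*, *Serpinb2* and *Serpini1* were below it.

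The 12 libraries came from 4 groups of 3 mice. Normal livers were from wild-type C57BL/6 mice. The other groups were *c-MYC/MCL1/Rictor KO Tsc2 KO* hepatocellular carcinomas (HCCs), raised in mice floxed for both genes (Rictor fl/fl, Tsc2 fl/fl) by hydrodynamic tail vein injection, which brings plasmids (here c-MYC, MCL1 and Cre) into hepatocytes. Thus all tumor groups shared both oncogenes and both deletions, and none was compared with a tumor that kept *Rictor* or *Tsc2*. Because Cre came from a plasmid under the CMV promoter, cells that took up no plasmid kept both genes. From 6 days after injection, mice received vehicle, MLN0128 (an inhibitor of the mTOR kinase) or everolimus (a rapamycin analog that acts on mTORC1) by gavage. The drugs were given at 1 mg/kg a day, 6 days a week over 3 weeks per the labels, with sacrifice 3.7 weeks after injection. Each group had 3 libraries numbered 1 to 3, and values are listed below in that order.

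Most serpins trap a protease by offering a loop, the reactive centre, as bait. Once cut, the loop inserts into the body of the serpin and the protease is carried along and deformed. Hepatocytes secrete many clade A members and several of the other clades into plasma, where they restrain clotting, fibrinolysis, complement and leukocyte proteases. A few of them carry hormones instead, while *Serpinh1*, of the other clades, is a collagen chaperone. Clade B members lack a classical signal peptide, act mostly inside cells, and protect them from proteases such as granzyme B and cathepsins.

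Reads recovered from the FPKM numbered 17189058 to 25211241 per library. The deposited FPKM carry scaling factors of 0.585 to 0.595 for normal livers and 1.10 to 1.37 for tumors, which bring the median log2 difference of all tested genes between vehicle tumors and normal liver to 0.06. With plain library totals that median was 0.62, and the serpin calls in this comparison were 7 higher and 16 lower in place of 5 and 21. All changes below are relative to the deposited scaling. *Xist* was at 191 and 155 FPKM in MLN0128 replicates 1 and 2 and at most 0.0699 FPKM elsewhere, so that 2 of the 3 MLN0128 tumors differed in this from all other libraries. The study used mice of both sexes and did not treat sex as a variable. Any part of sex in the differences between MLN0128 and the other groups was not tested. The targeted *Rictor* was at 1.99, 1.65 and 2.57 FPKM across normal livers and at 1.19, 1.5 and 1.05 FPKM in vehicle tumors, and *Tsc2* at 5.21, 5.32 and 4.50 against 2.24, 2.01 and 2.31 FPKM. These gene-level values include exons outside the floxed ones. Of 11 tested hepatocyte markers, 8 fell in vehicle tumors (*Alb* by 5.50 on the log2 scale). Summed hepatocyte markers stood at 98140 to 115000 FPKM in normal liver and 5933 to 9083 FPKM in vehicle tumors. In bulk tissue, fewer cells of a type and less RNA per cell cannot be told apart.

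The family as a whole was much less abundant in vehicle tumors than in normal liver. The clade A genes summed to 12180 ± 1641 FPKM (SD, n = 3) in normal liver and to 439 ± 42.8 FPKM in vehicle tumors, and took 1.23% to 1.61% of the recovered reads against 0.0902% to 0.112%. The other clades summed to 1769 ± 143 and 386 ± 23.5 FPKM. Clade B moved the opposite way, from 13.9 ± 0.901 to 38.2 ± 6.61 FPKM, although its sum remained the smallest of the 3 in every library. Most of that rise was in *Serpinb6a*, whose mean went from 5.28 to 25.3 FPKM. With MLN0128, the sums were 643 ± 156 FPKM for clade A, 10.5 ± 3.21 for clade B and 382 ± 108 for the others. With everolimus they were 587 ± 144, 9.58 ± 5.48 and 477 ± 25.5 FPKM. The clade A FPKM sum of every drug-treated tumor was above that of every vehicle tumor and below that of every normal liver. The margin was small for everolimus replicate 3, at 480 FPKM against 468 FPKM in vehicle replicate 3. As a share of recovered reads, everolimus replicate 3 (0.109%) was below vehicle replicate 3 (0.112%).

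**Figure D1:**
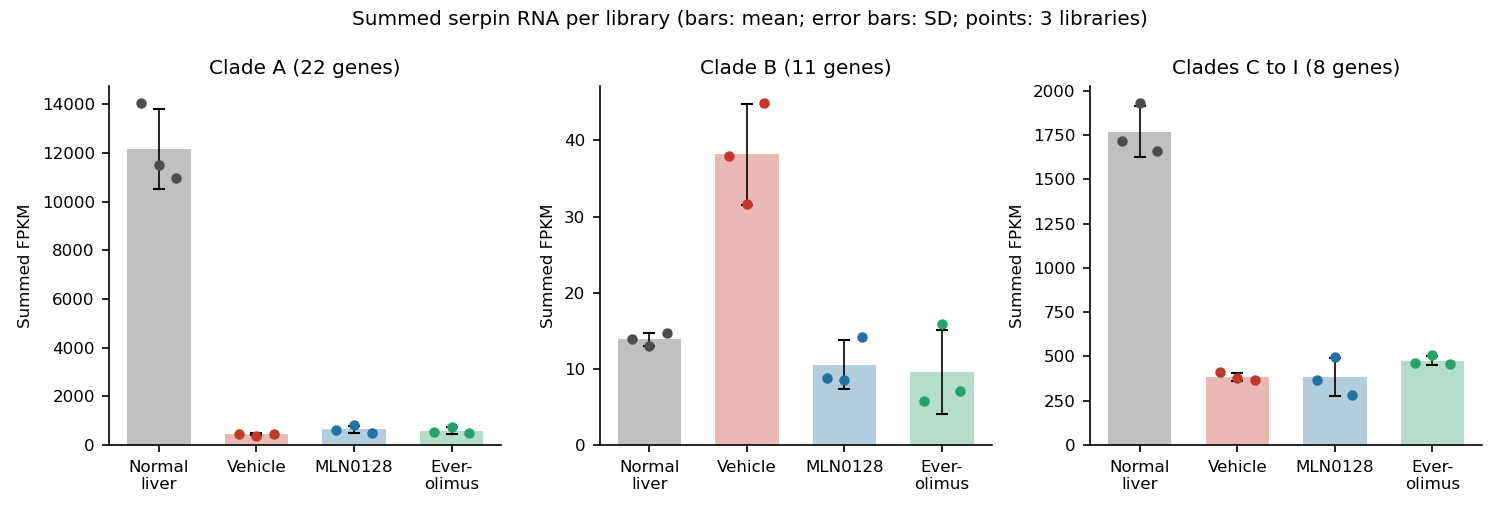
Summed FPKM of the clade A, clade B and other serpin genes in each of the 12 libraries, by group, in 1 panel for each. Points are libraries, bars are group means from 0 and error bars are SD. Clade A lies at 10980 to 14050 FPKM across normal livers and at 390 to 468 FPKM in vehicle tumors, and clade B is highest in the vehicle tumors.

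A gene was called when limma's treat test placed its change beyond 1.5-fold with an adjusted p under 0.05 (Benjamini-Hochberg, over all 14397 tested genes), with changes measured as differences of log2(FPKM + 1). Between vehicle tumors and normal liver, 21 of the 37 tested members were lower, where 16.9% of all tested genes were lower. In the other direction 5 of the 37 were higher, against 15.9% of all tested genes. The clades divided: 16 of 20 tested clade A genes fell and 0 rose, 5 of 10 clade B genes rose and 1 fell, and 4 of 7 others fell and 0 rose. Of the 5 clade B genes that rose, *Serpinb9d*, *Serpinb9e*, *Serpinb9f* and *Serpinb9g* passed the filter only through the vehicle tumors, so that their direction was fixed by the filter. Likewise *Serpina3c*, *Serpina9* and *Serpina12*, 3 of the 16 clade A genes that fell, passed it only through normal liver. The median change was -2.88 for clade A and -1.41 for the other clades. By the less strict rule of a moderated limma p under 0.05 after adjustment and a fold above 1.5, 23 members were lower and 6 higher, where 25.8% and 27.1% of all tested genes were.

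**Figure D2:**
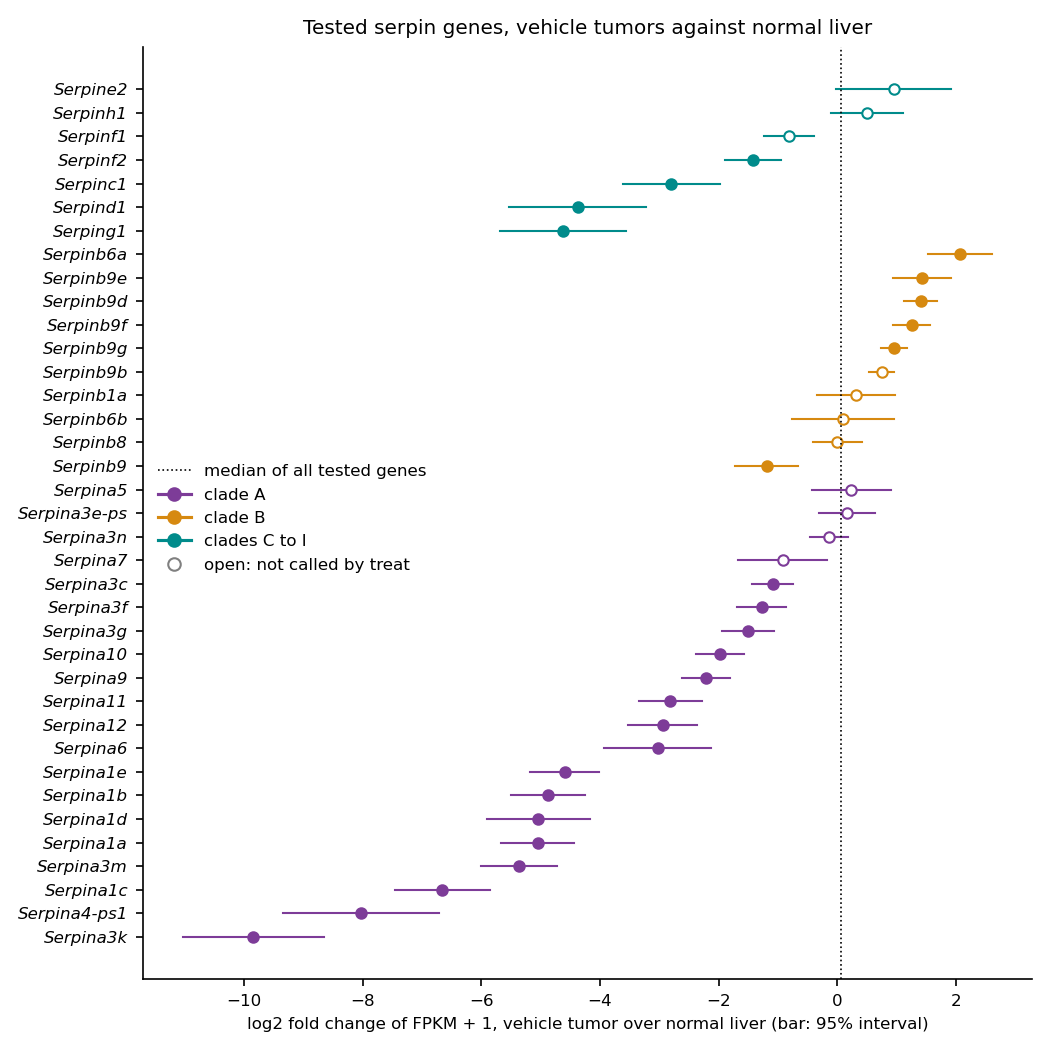
Log2 fold change of log2(FPKM + 1) for 37 tested serpin genes in vehicle tumors against normal liver, ordered by size within each clade. Points are estimates from 3 libraries a group (open where treat made no call), lines are 95% intervals and the dotted line is the median of all tested genes, 0.06. Clade A reaches down to -9.84 and the highest point is *Serpinb6a* at 2.07.

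The *Serpina1* genes are the mouse copies of alpha-1-antitrypsin, the main plasma inhibitor of neutrophil elastase. *Serpina1a* was at 1410, 1140 and 1150 FPKM across normal livers and at 41.1, 35.7 and 32.1 FPKM in vehicle tumors. *Serpina1b* was at 1080, 1160 and 1120 FPKM and then at 43.7, 28.6 and 41.0 FPKM. *Serpina1c* was at 1120, 1040 and 947 FPKM and then at 13, 8.71 and 6.94 FPKM. Each fell far beyond the spread of its 3 libraries, with log2 fold changes of -5.05 (SE 0.282, adjusted p = 1.45e-07) for *Serpina1a*, -4.88 (SE 0.287) for *Serpina1b* and -6.66 (SE 0.365, adjusted p = 1.04e-07) for *Serpina1c*. *Serpina1d* was at 807, 784 and 855 FPKM across normal livers and at 27.7, 21.5 and 22.7 FPKM in vehicle tumors, and *Serpina1e*, the least abundant copy, at 109, 117 and 118 FPKM and at 3.43, 3.99 and 3.93 FPKM. Their log2 fold changes were -5.04 (SE 0.400) and -4.60 (SE 0.269). The copies did not keep their proportions: *Serpina1c* made up 22.6% to 24.8% of the summed *Serpina1* FPKM in normal liver and 6.51% to 10.1% in vehicle tumors.

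The copies share 96.3% to 98.5% of their coding bases in pairs, and so their values depend on how reads that match several copies were assigned, which is not given in the sources used here. They differ most around the reactive centre. Shown are 60 coding bases (1170 to 1229 of *Serpina1a*) from the last coding exon of each copy in GRCm38, all on the minus strand of chromosome 12, with positions where the copies differ in capitals. These 60 bases hold 18 of the 86 positions that differ among 1239 compared without a gap.
Serpina1a: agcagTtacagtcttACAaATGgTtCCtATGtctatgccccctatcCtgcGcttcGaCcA
Serpina1b: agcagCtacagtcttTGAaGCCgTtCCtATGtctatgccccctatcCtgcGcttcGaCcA
Serpina1c: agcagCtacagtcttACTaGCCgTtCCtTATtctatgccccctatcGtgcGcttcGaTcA
Serpina1d: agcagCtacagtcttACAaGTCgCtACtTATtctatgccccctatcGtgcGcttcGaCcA
Serpina1e: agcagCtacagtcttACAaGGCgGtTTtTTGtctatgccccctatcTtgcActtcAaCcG
The stretches lie at chr12:103853757-103853816 for *Serpina1a*, chr12:103728324-103728383 for *Serpina1b*, chr12:103895094-103895153 for *Serpina1c*, chr12:103763762-103763821 for *Serpina1d* and chr12:103947100-103947159 for *Serpina1e*. In addition, 31.5% of the exonic bases of *Serpina1c* overlap the antisense gene *B430119L08Rik*, which was at 3.96 to 15.9 FPKM across normal livers and at 0.0861 to 0.374 FPKM in vehicle tumors. Whether the counting used strand is not given in the sources used here.

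*Serpina3k* and its neighbours are mouse relatives of alpha-1-antichymotrypsin. *Serpina3k* was the most abundant member in normal liver, at 7560, 5600 and 5210 FPKM, and was at 6.19, 2.38 and 10.7 FPKM in vehicle tumors, where it ranked 18th of the 41. Its mean fell from 6123 ± 1259 to 6.42 ± 4.16 FPKM (SD, n = 3), the largest fall in the family (log2 fold change -9.84, SE 0.542). *Serpina3m* was at 760, 489 and 436 FPKM and then at 12, 9.30 and 16.4 FPKM (-5.36, SE 0.295). By contrast, *Serpina3n*, known as an acute phase gene, was at 212, 261 and 258 FPKM across normal livers and at 223, 194 and 248 FPKM in vehicle tumors. Its groups overlapped, and its log2 difference of -0.14 had a 95% interval of -0.46 to 0.19, and so the interval does not reach a fold of 1.5 in either direction. It supplied 48.5% to 52.9% of all clade A FPKM in vehicle tumors, whereas in normal liver *Serpina3k* supplied 47.4% to 53.8%.

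These 3 genes lie next to each other on the plus strand of chromosome 12 and share 83.8% to 92.0% of their coding bases in pairs. The 60 coding bases in which they differ most, bases 70 to 129 of *Serpina3k*, are shown because 2 of the genes fell and their neighbour did not, with the 23 positions that differ in capitals.
Serpina3k: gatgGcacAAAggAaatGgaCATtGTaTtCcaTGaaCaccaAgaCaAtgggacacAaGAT
Serpina3m: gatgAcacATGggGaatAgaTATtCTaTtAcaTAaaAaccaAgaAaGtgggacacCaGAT
Serpina3n: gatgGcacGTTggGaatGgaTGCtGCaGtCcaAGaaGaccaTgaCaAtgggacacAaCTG
They lie at chr12:104340580-104340639, chr12:104389142-104389201 and chr12:104408737-104408796 (GRCm38). *Serpina3k* and *Serpina3m* also share 60 exonic bases in the annotation.

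Among the rest of the *Serpina3* group, *Serpina3g*, an intracellular inhibitor of cathepsins, was at 6.52, 8.83 and 9.83 FPKM across normal livers and at 2.15, 2.57 and 2.14 FPKM in vehicle tumors (-1.5, SE 0.201, adjusted p = 0.00176). *Serpina3f* fell by 1.27 and *Serpina3c* by 1.09. *Serpina3c* was at 2.01, 0.861 and 0.823 FPKM against 0, 0.0214 and 0.0388 FPKM, a ratio of 59.9 with an exact 95% counting interval of 19.8 to 296, and it passed the filter only through normal liver. *Serpina3e-ps* overlapped between the groups (a difference of 0.16). *Serpina3h* averaged 0.680 and 0.0635 FPKM in normal liver and vehicle tumors, and *Serpina3i* 0.165 and 0.11 FPKM. Annotated pseudogenes in clade A were *Serpina3h*, *Serpina3e-ps* and *Serpina4-ps1*. The last of these was nevertheless at 562, 297 and 429 FPKM across normal livers and at 0.616, 0.663 and 0.5 FPKM in vehicle tumors, the second largest fall (-8.03, SE 0.603, adjusted p = 1.11e-06).

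Of the hormone carriers, 1 fell. *Serpina6*, which binds glucocorticoids in plasma, was at 167, 349 and 242 FPKM across normal livers and at 26.6, 32.4 and 27.9 FPKM in vehicle tumors (-3.02, SE 0.412, adjusted p = 0.000285). *Serpina7*, which binds thyroxine, was at 26.7, 27.4 and 20 FPKM and at 8.85, 19.6 and 11 FPKM. The groups did not overlap, but its change was not called (-0.92, SE 0.344, adjusted p = 0.394 by treat and 0.0314 by the moderated test).

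The remaining clade A members were called lower, with 1 exception. *Serpina10*, an inhibitor of clotting factor Xa with protein Z, was at 117, 113 and 108 FPKM against 35.1, 19.4 and 31.7 FPKM (-1.98, SE 0.185). *Serpina11* fell from 84.6, 96.0 and 64.1 FPKM to 13.5, 8.75 and 10 FPKM. *Serpina12*, which encodes the adipokine vaspin, was at 13.7, 6.24 and 5.32 FPKM and at 0.190, 0.0514 and 0.186 FPKM, and it passed the filter only through normal liver. Each of these fell in all 3 vehicle tumors below every normal liver. *Serpina9* was at 4.67, 4.99 and 2.24 FPKM across normal livers and at most 0.0818 FPKM in vehicle tumors, and it passed the filter only through normal liver. *Serpina5*, the protein C inhibitor, was low throughout, at 0.386, 0.0839 and 0.177 FPKM and at 0.604, 0.197 and 0.516 FPKM, and its groups overlapped.

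Windows of 300 bases at gene starts (250 before and 50 after) were held by the RefSeq promoter table of GRCm38.p6 for 31 of the 41 members. They covered 14 clade A, 10 clade B and 7 other members and were searched for motifs on both strands. TTGCNNAA, the C/EBP letters, was in a window of 8, 1 and 1 members of clades A, B and the others (10.8% of all windows). A member was counted once if any of its windows matched, whereas these shares are over windows. TTCNNNGAA, the STAT letters, was in a window of 4, 2 and 0 members (8.30% of all windows). CAAAGTCCA (HNF4) was in 0 of the members' windows and 0.475% of all, and CACGTG (the E-box bound by MYC) in 0 and 7.15%. The windows of near-identical copies are not independent, and a match is a description of letters and not a binding site.

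The serpins of clotting and complement in the other clades fell as well. *Serpinc1* encodes antithrombin, the main inhibitor of thrombin and factor Xa, and was at 339, 375 and 324 FPKM across normal livers and at 57.0, 45.9 and 44.4 FPKM in vehicle tumors (-2.80, SE 0.375, adjusted p = 0.000291). *Serpind1*, heparin cofactor II, was at 412, 420 and 497 FPKM and at 30.5, 9.76 and 27.5 FPKM (-4.38, SE 0.529). *Serping1*, the C1 inhibitor of complement and kallikrein, was at 333, 363 and 301 FPKM and at 12.1, 7.18 and 21.9 FPKM (-4.62, SE 0.483). No vehicle tumor reached the lowest normal liver for any of these. In the annotation 34.4% of the exonic bases of *Serpinc1* overlap *Zbtb37* on the opposite strand, which was at 0.557 to 0.993 FPKM in these 6 libraries.

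The F clade genes gave smaller differences. *Serpinf2*, alpha-2-antiplasmin, was at 367, 446 and 317 FPKM and at 143, 158 and 120 FPKM (-1.41, SE 0.216, adjusted p = 0.00527). *Serpinf1*, pigment epithelium-derived factor, was at 258, 318 and 215 FPKM and at 158, 148 and 138 FPKM, a difference of -0.81 (SE 0.190) that passed the moderated test (adjusted p = 0.00243) and not treat. Consequently *Serpinf1* and *Serpinf2* became, in this order, the second and the third most abundant serpins of the vehicle tumors, after *Serpina3n*.

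*Serpine2*, protease nexin-1, was at 0.414, 0.175 and 0.486 FPKM and at 1.10, 2.01 and 1.84 FPKM, groups that did not overlap but were not called (0.95, SE 0.442, moderated adjusted p = 0.0737). *Serpinh1*, the collagen chaperone HSP47, was at 5.81, 8.46 and 5.65 FPKM and at 10.5, 6.12 and 13.8 FPKM and was not called. *Serpini1*, neuroserpin, was at most 0.456 FPKM in any library.

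In clade B, *Serpinb6a*, an inhibitor of cathepsin G and trypsin-like proteases, was at 4.54, 5.45 and 5.86 FPKM across normal livers and at 25.8, 24.1 and 26.1 FPKM in vehicle tumors. The levels in both groups were tight, and the rise was larger than their spread (2.07, SE 0.243, adjusted p = 0.000218). Its exons overlap 3 genes of the opposite strand, of which *Nqo2* covers 14.1% of its bases, and *Nqo2* was at 29.4, 31.5 and 39.0 FPKM across normal livers and at 17.0, 10.8 and 15.1 FPKM in vehicle tumors. *Serpinb9*, the inhibitor of granzyme B, moved the opposite way, from 5.79, 3.69 and 5.62 FPKM to 1.55, 0.991 and 2.52 FPKM (-1.19, SE 0.242, adjusted p = 0.0453). That call was lost in 19 of 35 alternatives.

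The other clade B members were low. *Serpinb6b* was at 2.01, 2.20 and 2.16 FPKM and at 2.91, 1.09 and 3.55 FPKM. *Serpinb8* was at 0.696, 0.794 and 0.680 FPKM and at 0.788, 0.247 and 1.32 FPKM. *Serpinb1a*, an inhibitor of neutrophil elastase, was at 0.846, 0.748 and 0.416 FPKM and at 1.09, 0.371 and 2.09 FPKM. For each of these the vehicle tumors lay on both sides of the normal livers, and none was called. *Serpinb2*, PAI-2, had 0 reads in all 6 of these libraries and 50 and 47 reads in the MLN0128 and everolimus groups, nearly all from MLN0128 replicate 3 (50) and everolimus replicate 2 (44).

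Next to *Serpinb9* on chromosome 13 lie the related copies *Serpinb9b*, *Serpinb9d*, *Serpinb9e*, *Serpinb9f* and *Serpinb9g*. In normal liver the last 4 had 0 reads in all 3 libraries, and *Serpinb9b* had 3 in all. In vehicle tumors *Serpinb9d* was at 1.53, 1.21 and 2.34 FPKM (41, 32 and 68 reads), *Serpinb9e* at 1.80, 0.715 and 3.06 FPKM, *Serpinb9f* at 1.07, 1.09 and 2.16 FPKM and *Serpinb9g* at 0.848, 1.26 and 0.757 FPKM. Against the 3 reads that a count of 0 allows over the group, vehicle tumors were at least 23.0-fold higher for *Serpinb9d*, at least 39.2-fold for *Serpinb9e*, at least 30.1-fold for *Serpinb9f* and at least 19.6-fold for *Serpinb9g*. *Serpinb9b* was at 0.599, 0.609 and 0.999 FPKM, a ratio of 26.8 to normal liver with a counting interval of 9.01 to 131. Its treat test was not called (0.75, adjusted p = 0.162), as log2(FPKM + 1) compresses such low values. Intervals and bounds cover counting error only.

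The same 5 copies were at or near 0 again in both groups of drug-treated tumors. *Serpinb9d* and *Serpinb9e* had 0 reads in all 6. *Serpinb9g* was above 0 only in everolimus replicate 3 (0.0417 FPKM), *Serpinb9f* reached at most 0.0864 FPKM and *Serpinb9b* at most 0.0719 FPKM. Vehicle tumors were at least 52.6-fold above MLN0128 and 52.9-fold above everolimus tumors for *Serpinb9d*, at least 89.5-fold and 90.1-fold for *Serpinb9e*, and at least 44.8-fold above MLN0128 for *Serpinb9g*. The ratio for *Serpinb9f* over MLN0128 was 206 (36.5 to 8176) and that for *Serpinb9g* over everolimus 67.5 (18.3 to 564). Thus every vehicle tumor held reads of all 5 copies, and the other 9 libraries held a few reads at most.

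This pattern, at least 0.5 FPKM in every vehicle tumor and every other library more than 5 times below the lowest of them, was written down after seeing these values, and 31 of 17005 listed genes showed it. On chromosome 13, a span of 1.16 Mb from *Serpinb1a* to *Serpinb6a* holds 12 listed genes, 9 of them serpins, and 6 of the 12 showed the pattern. These were the 5 copies, within 469 kb, and the adjacent noncoding gene *Gm6093*, which was at 0.561, 0.933 and 0.655 FPKM in vehicle tumors and at most 0.0969 FPKM elsewhere. *Serpinb9* and *Serpinb6b*, on one side of them, and *Nqo2*, on the other, did not show it.

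**Figure D3:**
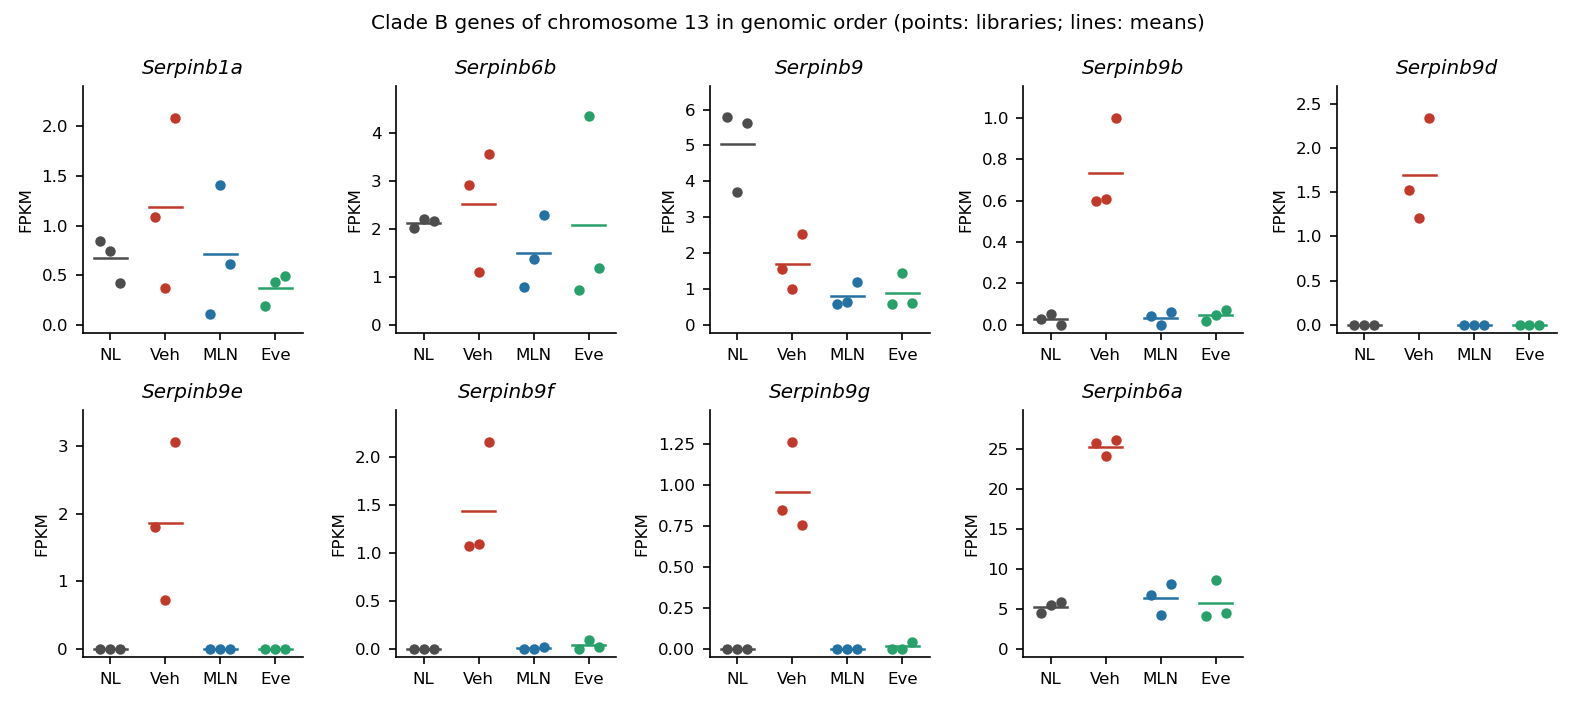
FPKM of the 9 serpin genes of the chromosome 13 span in genomic order, 1 panel a gene with its own linear axis, in normal liver (NL), vehicle (Veh), MLN0128 (MLN) and everolimus (Eve) tumors. Points are libraries and lines group means. From *Serpinb9b* to *Serpinb9g* the vehicle tumors lie between 0.599 and 3.06 FPKM and all other libraries at or under 0.0864 FPKM.

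The copies share 78.9% to 98.7% of their coding bases in pairs, so some of their reads may be split among them. They differ most toward the end of the coding sequence, where serpins hold the reactive centre, and 60 bases from the last coding exon are shown (GRCm38, plus strand), with the 33 positions that differ in capitals.
Serpinb9b: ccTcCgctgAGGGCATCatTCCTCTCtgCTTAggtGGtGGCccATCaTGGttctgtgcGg
Serpinb9d: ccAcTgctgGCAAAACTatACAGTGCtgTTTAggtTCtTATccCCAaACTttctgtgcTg
Serpinb9e: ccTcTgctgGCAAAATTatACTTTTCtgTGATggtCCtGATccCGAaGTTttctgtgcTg
Serpinb9f: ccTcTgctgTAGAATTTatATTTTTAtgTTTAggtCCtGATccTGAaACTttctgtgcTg
Serpinb9g: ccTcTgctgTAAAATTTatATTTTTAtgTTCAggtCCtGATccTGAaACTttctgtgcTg
In this order they lie at chr13:33039824-33039883, chr13:33202948-33203007, chr13:33259996-33260055, chr13:33334516-33334575 and chr13:33495146-33495205.

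The promoter windows of *Serpinb9d* to *Serpinb9g* are alike as well, with 91.6% to 99.3% identity in pairs over 285 to 296 aligned bases. When any of them is aligned with *Serpinb9b* or *Serpinb9*, only 146 to 164 bases align, with 61.6% to 70.6% identity. The windows of *Serpinb9d* and *Serpinb9g* are shown because both genes went from 0 reads in normal liver to every vehicle tumor. Capitals in *Serpinb9g* mark the 23 bases that differ from *Serpinb9d*.
Serpinb9d: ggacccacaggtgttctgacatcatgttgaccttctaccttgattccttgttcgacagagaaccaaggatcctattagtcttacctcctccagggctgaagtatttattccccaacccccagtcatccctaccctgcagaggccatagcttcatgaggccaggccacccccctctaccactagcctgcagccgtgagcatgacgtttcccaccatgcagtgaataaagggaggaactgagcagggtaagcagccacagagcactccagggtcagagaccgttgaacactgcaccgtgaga
Serpinb9g: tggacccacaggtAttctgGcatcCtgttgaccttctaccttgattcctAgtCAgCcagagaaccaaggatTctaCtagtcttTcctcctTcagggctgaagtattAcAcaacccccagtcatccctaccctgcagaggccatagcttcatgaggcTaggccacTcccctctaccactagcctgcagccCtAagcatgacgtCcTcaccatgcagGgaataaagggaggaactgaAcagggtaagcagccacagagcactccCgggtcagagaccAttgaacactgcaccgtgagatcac
They lie at chr13:33192705-33193004 and chr13:33484540-33484839 on the plus strand (GRCm38.p6).

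Each drug was then compared with vehicle. Both comparisons use the same 3 vehicle libraries, so their values are given side by side and their likeness is not tested. With MLN0128, treat called 1 of 37 members higher, against 0.479% of all tested genes, and 3 lower, against 1.65%. With everolimus it called 0 higher, against 0.0347%, and 2 lower, against 0.57%. The lower calls were all in clade B. By the moderated test with a fold above 1.5, 8 members were higher and 6 lower with MLN0128, where 8.09% and 11.2% of all tested genes were, and 1 was higher and 6 lower with everolimus, where 2.03% and 4.69% were. The 6 lower genes were *Serpinb6a* and the 5 *Serpinb9* copies in both. Since the copies passed the filter only through the vehicle tumors, only *Serpinb6a* of these 6 was free to move either way.

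*Serpinb6a* was at 6.79, 4.23 and 8.17 FPKM with MLN0128 and at 4.06, 8.61 and 4.51 FPKM with everolimus, against 24.1 to 26.1 FPKM with vehicle. It fell by 1.87 (adjusted p = 0.0120) and by 2.03 (adjusted p = 0.0108) on the log2 scale, to a range that included the 4.54 to 5.86 FPKM of normal liver. *Nqo2*, which overlaps it, was at 5.96 to 11.1 and 9.24 to 11.4 FPKM. The call of *Serpinb6a* was lost in 4 of 35 alternatives with MLN0128 and in 9 of 35 with everolimus. *Serpinb9d* was lower by 1.41 with either drug (adjusted p = 0.00383 and 0.00584), and *Serpinb9f* was called with MLN0128 only (-1.25, adjusted p = 0.0240). The direction of both was fixed by the filter, so these p-values are no support for a fall. With everolimus the change of *Serpinb9f* was -1.21 and passed the moderated test, and the difference between the drugs was not called. All 3 of the MLN0128 calls were lost, with -1.52, -1.41 and -1.23 for *Serpinb6a*, *Serpinb9d* and *Serpinb9f*, when the libraries with *Xist* were left out, which leaves 1 MLN0128 tumor. *Serpinb9* itself was at 0.574, 0.645 and 1.18 FPKM with MLN0128 and at 0.591, 1.43 and 0.597 FPKM with everolimus and was not called in either.

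The remaining clade B genes overlapped with vehicle. *Serpinb6b* was at 0.794, 1.37 and 2.29 FPKM with MLN0128 and at 0.726, 4.34 and 1.19 FPKM with everolimus. *Serpinb8* was at 0.492, 0.890 and 0.994 FPKM and at 0.177, 0.289 and 0.167 FPKM. *Serpinb1a* was at 0.107, 1.41 and 0.617 FPKM and at 0.184, 0.430 and 0.488 FPKM. None of the 3 was called.

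**Figure D4:**
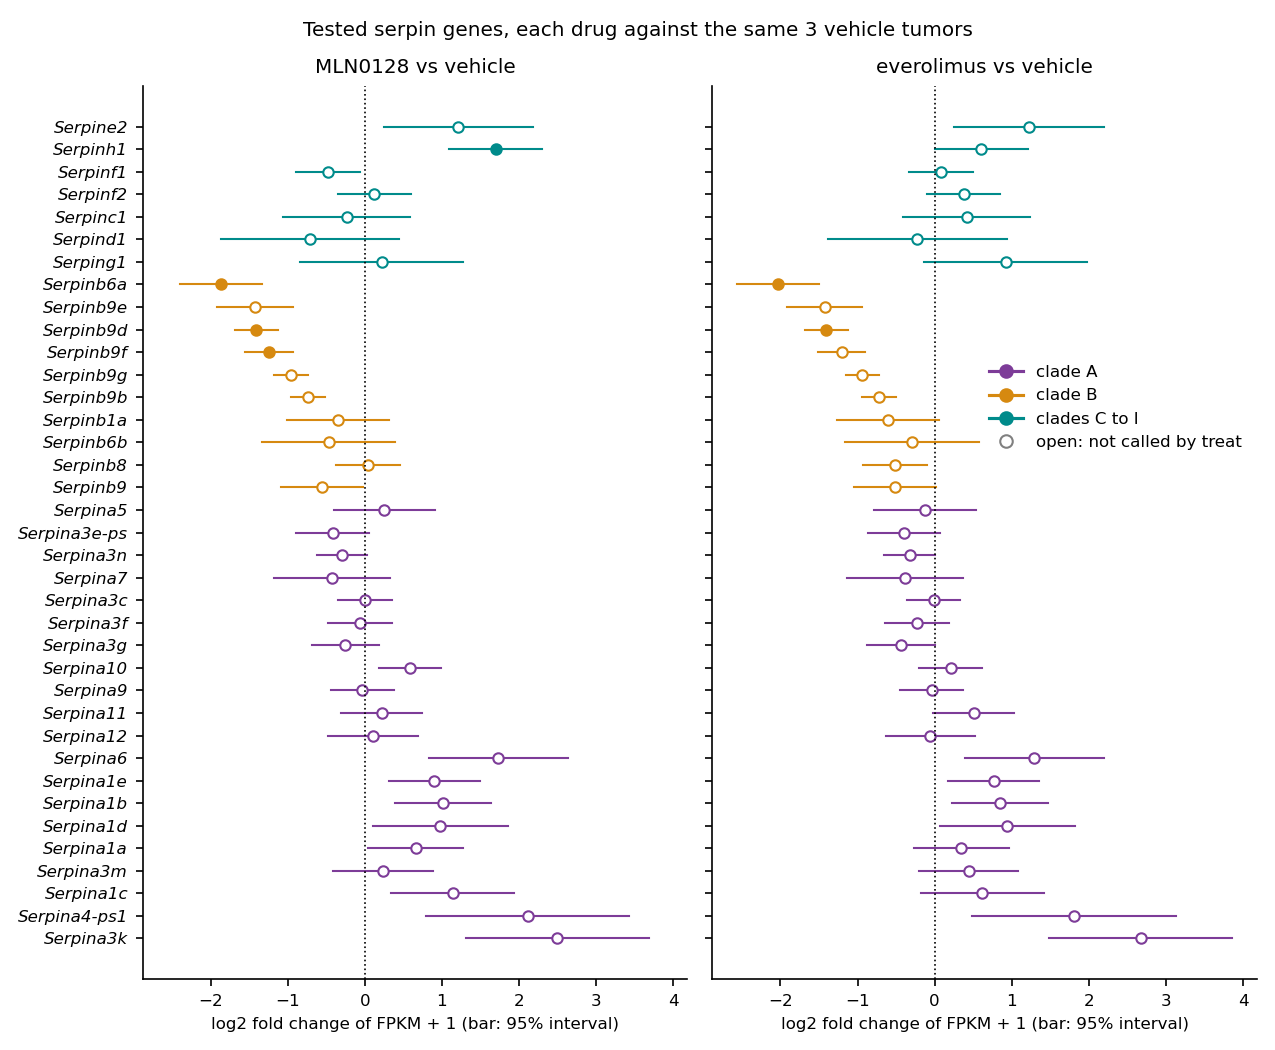
Log2 fold change of log2(FPKM + 1) for 37 tested serpin genes with MLN0128 and with everolimus, each against the same 3 vehicle tumors, in the same order in both panels. Points are estimates (open where treat made no call) and lines their 95% intervals. *Serpinb6a* lies lowest, at -1.87 and -2.03, and *Serpina3k* highest, at 2.50 and 2.67.

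*Serpinh1* was the only member that rose with MLN0128 by treat. It was at 47.0, 24.3 and 33.2 FPKM with MLN0128, at 14.2, 14.5 and 17.1 FPKM with everolimus and at 10.5, 6.12 and 13.8 FPKM with vehicle. Every MLN0128 tumor was above every other library of the experiment. The rise was 1.70 (SE 0.275, adjusted p = 0.0443), and this call was lost in 24 of 35 alternatives. The direction did not change, but in many of these alternatives the MLN0128 and vehicle values were untouched, so it could not. With everolimus the difference was 0.60 (moderated adjusted p = 0.184). Between the drugs, treat called 0 members in either direction, where 0.00695% of all tested genes were higher with MLN0128 and 0.0347% lower. By the moderated test with a fold above 1.5, *Serpinh1* alone was higher with MLN0128 (1.09, SE 0.275, adjusted p = 0.0325), against 2.3% of all tested genes, and 0 members were lower, against 3%. Of 21 genes for collagens and their maturation, the clients and partners of HSP47, 8 rose and 2 fell in vehicle tumors against normal liver. Of all tested genes 15.9% rose and 16.9% fell in that comparison. With either drug, 0 of the 21 were called. Their median difference was -0.02 with MLN0128 and 0.11 with everolimus. Summed, they were at 624.6 to 783 FPKM in normal liver and 472.8 to 519.3 FPKM with vehicle. With MLN0128 their sums were 322.9 to 397.3 FPKM, below every vehicle tumor, and with everolimus 403.3 to 482 FPKM.

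In clade A no gene was called by treat with either drug in the fit used here, and the differences pointed upward for several of the genes that had fallen in the tumors. *Serpina3k* was at 36.1, 44.1 and 29.6 FPKM with MLN0128 and at 37.6, 101 and 17.8 FPKM with everolimus, all above the 2.38 to 10.7 FPKM of vehicle. The differences were 2.50 and 2.67, with adjusted p = 0.00524 and 0.0115 by the moderated test. Treat did call *Serpina3k* with MLN0128 under log2(FPKM + 0.1) (2.71), under voom (2.71) and without everolimus replicate 2 or 3 (2.50), and with everolimus without everolimus replicate 3 (3.25). Even the highest of these, 101 FPKM, was far below the lowest normal liver, 5210 FPKM. *Serpina6* was at 126, 159 and 47.0 FPKM with MLN0128 (1.73, moderated adjusted p = 0.00844) and at 89.5, 48.1 and 87.3 FPKM with everolimus (1.29, 0.0679), against 26.6 to 32.4 FPKM with vehicle. *Serpina4-ps1* was at 3.47, 20.2 and 2.44 FPKM and at 2.96, 2.72 and 10.7 FPKM, each above 0.663 FPKM, the highest vehicle value. The spread within each drug group was several-fold, mostly from MLN0128 replicate 2 and everolimus replicate 3. For *Serpina6* the 2 high MLN0128 values, 126 and 159 FPKM, were those of the libraries with *Xist*. Without MLN0128 replicate 3 its difference was 2.25 and was called by treat (adjusted p = 0.0119), and without the libraries with *Xist*, which leaves 1 MLN0128 tumor, it was 0.68 and did not pass the moderated test. In that setting none of the 7 clade A genes that had passed the moderated test with MLN0128 still passed it, with *Serpina3k* at 2.22 and adjusted p from 0.0953 to 0.407.

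The summed *Serpina1* genes were at 111 ± 15.8 FPKM with vehicle, 224 ± 91.9 FPKM with MLN0128 and 198 ± 86.0 FPKM with everolimus, against 4319 ± 181 FPKM in normal liver (SD, n = 3). *Serpina1a* was at 41.9, 101 and 45.2 FPKM with MLN0128 and at 52.2, 50.9 and 37.0 FPKM with everolimus. *Serpina1b* was at 74.5, 103 and 57.5 FPKM and at 56.4, 109 and 50.1 FPKM. For *Serpina1b* every drug-treated tumor was above the highest vehicle tumor, and its difference passed the moderated test with MLN0128 (1.02, adjusted p = 0.0191). *Serpina1c* was at 17.7, 45.0 and 12.5 FPKM and at 17.5, 15.2 and 12 FPKM, and *Serpina1d* at 43.7, 69.4 and 36.1 FPKM and at 33.5, 107 and 28.3 FPKM. *Serpina1e* was at 7.51, 10.4 and 6.36 FPKM and at 5.43, 12.9 and 4.99 FPKM. *Serpina1c* (1.14, moderated adjusted p = 0.0328) and *Serpina1e* (0.90, 0.0242) also passed the moderated test with MLN0128, as did *Serpina10* (0.59, 0.0308). MLN0128 replicate 2 held the highest value of its group for each *Serpina1* copy, and everolimus replicate 2 for *Serpina1b*, *Serpina1d* and *Serpina1e*. Over the same libraries the summed hepatocyte markers were at 2869 to 6490 FPKM with MLN0128 and 5540 to 10170 FPKM with everolimus, none of 11 was called, and their part in these values was not tested. *Serpina1c* stayed at 7.93% to 13.7% and 5.15% to 10.6% of the *Serpina1* sum, below the share in any normal liver.

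**Figure D5:**
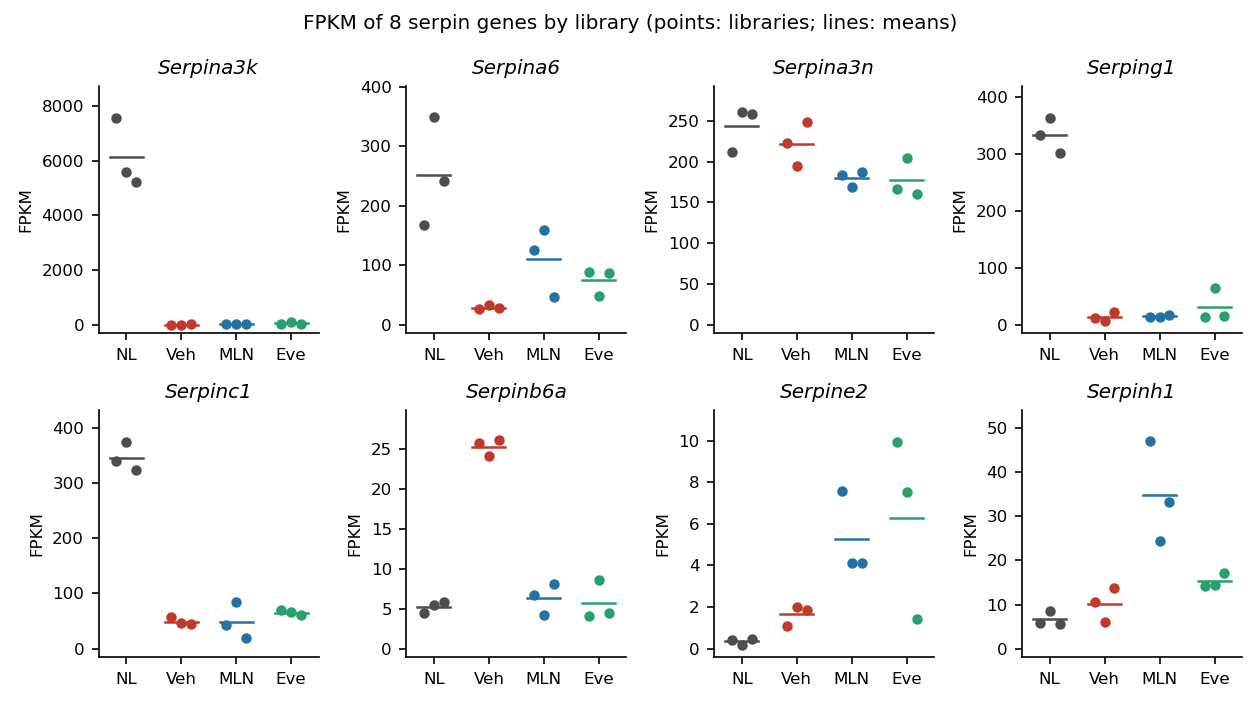
FPKM of 8 serpin genes, 1 panel a gene with its own linear axis, in normal liver (NL), vehicle (Veh), MLN0128 (MLN) and everolimus (Eve) tumors. Points are libraries and lines group means. *Serpina3n* overlaps between normal liver and vehicle, *Serping1* and *Serpinc1* are below normal liver in all 9 tumors, and *Serpinh1* is highest with MLN0128, at 24.3 to 47.0 FPKM.

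The other clade A genes gave smaller differences. *Serpina3m* was at 13.1, 16.4 and 14.5 FPKM with MLN0128 and at 14.6, 27.6 and 12.1 FPKM with everolimus. *Serpina3n* was at 183, 169 and 187 FPKM and at 166, 205 and 160 FPKM and was again the most abundant clade A gene in each tumor. *Serpina7* was at 9.20, 8.22 and 9.63 FPKM and at 4.95, 16.3 and 9.62 FPKM. None of them was called. *Serpina3g* was at 1.10, 2.18 and 2.14 FPKM and at 1.11, 2.07 and 1.22 FPKM, *Serpina12* at most 0.598 FPKM and *Serpina3c* at most 0.0636 FPKM. *Serpina10* was at 36.4, 44.3 and 47.4 FPKM with MLN0128 and at 31, 33 and 33 FPKM with everolimus. *Serpina5* reached 2.15 FPKM in MLN0128 replicate 2 and was at most 0.557 FPKM in the other drug-treated tumors.

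In the other clades, *Serpinc1* was at 43.6, 83.9 and 19.0 FPKM with MLN0128 and at 70.3, 65.6 and 60.8 FPKM with everolimus. *Serpind1* was at 13.4, 24.7 and 4.96 FPKM and at 14.2, 30.5 and 11.7 FPKM, and *Serping1* at 14.1, 13.1 and 17.2 FPKM and at 14.1, 63.8 and 16.1 FPKM. These inhibitors of clotting and complement thus remained below every normal liver in all 6 drug-treated tumors. *Serpinf1* was at 96.3, 135 and 90.5 FPKM and at 174, 132 and 167 FPKM, and *Serpinf2* at 147, 211 and 113 FPKM and at 167, 192 and 186 FPKM. *Serpine2* was at 7.56, 4.13 and 4.10 FPKM with MLN0128 (1.21, moderated adjusted p = 0.0552) and at 9.94, 7.52 and 1.45 FPKM with everolimus (1.22, 0.101). None of these genes was called in either comparison, except that treat called *Serpine2* with everolimus when everolimus replicate 3 was left out (1.88).

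The proteases that serpins act on, together with their cofactors and receptors, were followed as a list. Of its 43 tested genes, 26 fell and 7 rose in vehicle tumors against normal liver, where 16.9% of all tested genes fell and 15.9% rose, so that the share that rose was near that of all genes. The median was -1.42 where that of all tested genes was 0.06. The coagulation and plasmin zymogens *F2* (-2.70), *Plg* (-3.51), *F9* (-3.92) and *Klkb1* (-4.73), which the liver secretes, were among those that fell. The 7 that rose were *St14* (3.25), *Plaur* (2.92), *Prss8* (2.28), *Ctsl* (1.60), *Vldlr* (1.39), *Ctsb* (1.15) and *Plat* (1.02). *Plat* encodes tPA, a plasminogen activator, and *Plaur* the receptor of uPA, and *Ctsl* and *Ctsb* are lysosomal cathepsins. With MLN0128, 0 rose and *Ctsl* (-2.14), *Ctsb* (-1.62) and *Vldlr* (-1.49) fell, and with everolimus 0 rose and *Ctsl* (-1.34) fell. Of 23 acute phase genes, the group to which *Serpina3n* is usually assigned, 14 fell and 2 rose in vehicle tumors (*Saa3* by 4.04 and *Il1rn* by 1.69 on the log2 scale), with a median of -1.76. With MLN0128 *Apcs* (-2.61) and *Il1rn* (-1.5) fell, with everolimus *Saa3* (-2.80) fell, and 0 rose with either.

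Markers of cells other than hepatocytes moved in both directions. In vehicle tumors, where 15.9% of all tested genes rose and 16.9% fell, 1 of 9 macrophage markers rose and 4 fell, 0 of 8 endothelial markers rose and 4 fell, and 3 of 10 stellate cell and fibroblast markers rose and 4 fell. The macrophage marker that rose, *Cd68*, was at 5.75, 4.98 and 4.80 FPKM across normal livers and at 24.6, 28.2 and 36.8 FPKM in vehicle tumors. It was at 11, 5.37 and 12.4 FPKM with MLN0128 and at 6.82, 12.8 and 9.32 FPKM with everolimus. Its differences with the drugs (-1.6 and -1.56) passed the moderated test (adjusted p = 0.00157 and 0.00595) and not treat. The summed macrophage markers went the other way, from 187.2 to 234.7 FPKM in normal liver to a range of 75.66 to 118.5 FPKM in vehicle tumors. Of 4 bile duct markers *Krt19* (4.13), *Epcam* (1.5) and *Sox9* (1.34) rose, *Krt19* and *Sox9* fell with MLN0128 (-4.05 and -1.51), and *Krt19* fell with everolimus (-4.04). The summed bile duct markers overlapped between normal liver (40.2 to 43.61 FPKM) and vehicle tumors (36.77 to 92.46 FPKM). They were at 10.25 to 28.15 FPKM with MLN0128 and 17.2 to 61.78 FPKM with everolimus. *Serpinb6a* moved in the same directions as *Krt19*, and the directions of the *Serpinb9* copies were fixed by the filter. No marker of neutrophils (4 tested), T and NK cells (1) or platelets (2) was called in any comparison, and no mast cell marker was tested. The part of these cells in the serpin values was not tested.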

How the data were processed

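RNA-Seq values of 12 mouse libraries in 4 groups of 3 were used as deposited: the authors' linear FPKM per gene, rounded to 3 significant digits. The authors had libraries made by Novogene, assigned reads to Ensembl genes, took symbols from org.Mm.eg.db and called genes with glmTreat of edgeR. The submitters' processing notes name FastQC 0.11.7 and GRCm38. The aligner and the strand setting are not given in the sources used here. The labels give 3 weeks of treatment, whereas the study's results text gives 3 days. Samples were grouped by the labels. A paired test is named for a plot of 1 gene in drug-treated tumors, but which samples were paired is not stated, and p-values measure the spread between these mice.

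Differences of log2(FPKM + 1) were fitted with limma 3.58.1 in R 4.3.3 for 14397 genes that reached 0.5 FPKM in 3 of 12 libraries or more, all libraries in 1 model with 8 residual degrees of freedom and an intensity trend. Calls used treat with a fold of 1.5 and p under 0.05, adjusted over all tested genes by Benjamini-Hochberg, with the moderated test beside it. Adjusted p without another name is that of treat. The fold change of low genes is understated on this scale. The members and lists were chosen with earlier results of these data known. Values per library were given for the 8 called members with the largest rise and fall per comparison and for a list by role. Other members and genes named were chosen after their values were seen. Values of 1 member, 1 marker gene and 1 motif are not reported here.

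FPKM times exon length gave whole reads, within 0.1, for 98.2% to 98.8% of values under 20 reads, where chance gives 20%. These recovered reads served for depth, bounds (3 reads pooled over a group) and exact 95% intervals. Symbols and positions came from the annotation of GRCm38, where 16890 listed symbols matched and 22 had been turned into dates. Coding stretches were read from GRCm38 and promoters from RefSeq. Alternatives covered the pseudocount, filter, scaling, test, model, a replicate block, voom and each library left out. The steps were tested on simulated data. Tables and figures used Python 3.11.15, pandas 2.3.3, SciPy 1.17.1, Biopython 1.88 and matplotlib 3.10.9.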

Additional observations from a re-analysis of the deposited data

Results flagged for a closer look

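*Serpinh1* differed between the 2 drug treatments in a direct test of MLN0128 against everolimus: its log2 level was higher by 1.09 with MLN0128 (SE 0.275, moderated limma test, adjusted p = 0.0325), in 3 of 3 MLN0128 tumors above every everolimus tumor. By treat against a fold of 1.5 this difference was not called. The 2 MLN0128 tumors with *Xist* held 47.0 and 24.3 FPKM and the third 33.2 FPKM.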

How the results depend on the processing

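The 32 calls of a member in a comparison were recomputed under 1089 alternatives in which the member was still tested: 1022 kept direction and call, 67 kept the direction and lost the call, and 0 reversed. Alternatives in which a member missed the filter were not counted here. The direction of *Serpinb9d* to *Serpinb9g*, *Serpina3c*, *Serpina9* and *Serpina12* was fixed by the filter, so their lack of reversals is no support. For every member, many alternatives could not change the estimate, such as another filter or leaving out a library of a group outside the comparison. A kept direction in those is no support either. Higher members in vehicle tumors numbered 5, were 3 with a filter of 1 FPKM in 3 libraries, and went to 1 when any vehicle library was left out, since the *Serpinb9* copies then missed the filter. Leaving out 1 library gave 1 to 5 higher and 18 to 21 lower in that comparison, 0 to 1 higher and 0 to 3 lower with MLN0128, and 0 to 2 higher and 0 to 2 lower with everolimus. With the tested genes of all 12 libraries kept, an alternative chosen after seeing the data, these ranges were 5 to 5 and 20 to 21, 0 to 1 and 2 to 4, and 0 to 2 and 1 to 4. With log2(FPKM + 0.1) or voom on recovered reads, 2 members were higher and 6 lower with MLN0128 and 6 lower with everolimus. The moderated test gave 8 higher and 6 lower with MLN0128, 1 higher and 6 lower with everolimus, and 1 higher for MLN0128 against everolimus. Plain library totals gave 5 lower with MLN0128. The higher call with MLN0128 (*Serpinh1*) went to 0 with no filter, with the 2 groups alone, with the replicate block and without the libraries with *Xist*, and the lower calls went to 0 in the last of these and, for everolimus, with the 2 groups alone. Without those libraries 1 MLN0128 tumor is left and is assumed to vary like the other groups. Same-numbered libraries of different groups correlated from -0.289 to 0.148 in their deviations, 1 of 18 pairs above 0.1, so the numbers were not taken to pair the mice. The replicate block also ended the call of *Serpinb9* in vehicle tumors (20 lower). The cause of these losses was not tested. Depth limits the members with few reads, such as the *Serpinb9* copies, at 29 to 137 reads each per vehicle tumor, and *Serpina5*, at 9 to 28.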
